A study of Mus musculus with 9 samples.

Results

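The de novo purine synthesis enzymes were followed here as 10 genes, *Prps2*, *Ppat*, *Gart*, *Pfas*, *Paics*, *Adsl*, *Atic*, *Impdh1*, *Impdh2* and *Gmps*, picked by gene symbol from a table of 55367 genes. Whole-tumor RNA-Seq had been done on spontaneous mouse osteosarcomas (OS) of 2 genotypes, and the question was how their transcriptomes differ. The 4 tumors called p53 driven here (F187, F325, F331, F368) arose in mice carrying Col2.3-Cre and Trp53 fl/+, in which an osteoblast promoter drives the Cre recombinase that removes 1 floxed allele of the tumor suppressor gene. The 5 tumors of the *Myc*-knockin group (M351, M408, M9, M624, M664) carried Col2.3-Cre and Trp53 fl/+ as well, plus the Lox-Stop-Lox-MycT58A allele, so that Cre also switches on a form of MYC with a changed threonine. Both groups therefore share the *Trp53* lesion, no group has an intact *Trp53* genotype, and the labels give no ages. The authors report a shorter median time to sacrifice for *Myc*-knockin mice, so age may differ between the groups along with genotype.

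De novo synthesis builds the purine ring step by step on phosphoribosyl pyrophosphate (PRPP), a sugar phosphate, until inosine monophosphate (IMP) is reached. IMP is then turned into adenine or guanine nucleotides, which cells need for DNA, RNA, energy transfer and signaling. Dividing cells depend on the pathway, and drugs that block IMP dehydrogenase or the folate-dependent steps slow cell growth.

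A canonical E-box, the 6 bases CACGTG that MYC and MAX bind as a pair, is the sequence most closely tied to the question, so the members' promoters were searched for it. The windows were RefSeq promoter sequences on GRCm38.p6 (mm10), each 300 bases long, from 250 bases before to 50 after a transcript start, and the motif reads the same on both strands. Of the 9 members with a window, 3 held it, *Atic*, *Impdh2* and *Paics*, against 8.09% of the 27025 genes with a window and 7.15% of all 32851 windows. The 30 bases around each match are given with the motif in capitals. They lie at chr1:71557137-71557166 (*Atic*), chr9:108560314-108560343 (*Impdh2*) and chr5:76951087-76951116 (*Paics*), all on the plus strand.
Atic: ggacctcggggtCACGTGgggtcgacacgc
Impdh2: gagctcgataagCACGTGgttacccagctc
Paics: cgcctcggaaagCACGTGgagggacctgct
The match began 7 bases before the *Atic* start, 110 before the *Impdh2* start and 203 before the *Paics* start, where it also falls inside the span of the neighboring gene *Ppat*. A match describes the letters of a window only, and binding was not measured.

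Library depth differed widely, and some libraries stood apart. Total counts ran from 2716322 to 17073285 per tumor, which puts the level that 3 counts give at 0.114 to 2.39 CPM (counts scaled to a common library size, with TMM factors). In F187, M351, M408 and M9, reads on 12 predicted genes, called satellite-repeat genes here, took 23.2% to 81.0% of all counts. The share was at most 0.0242% in the other 5 tumors. These genes were picked for being far higher in those 4 libraries than in any other. A gap was thus fixed by the choice, though not the size of the share. That the genes are satellite repeats was not checked by sequence. Those 4 libraries also held 264 to 10645 CPM over 1781 chemosensory receptor genes, which bone tumors are not known to use, against at most 28.2 CPM elsewhere. In M624 and M664 the small nuclear RNA *Rn7sk* was at 3.47 and 6.35 CPM, against at least 6545 CPM in every other tumor. No *Myc*-knockin library was free of both features, as F325, F331 and F368 were. Only F187 shared its kind of library with any *Myc*-knockin tumor. Genotype and kind of library thus largely coincide, and their parts in the differences below cannot be told apart. *Myc* itself was at 577 ± 391 CPM (SD, n = 5) in *Myc*-knockin and 54.3 ± 11.3 CPM (SD, n = 4) in p53-driven tumors, and every tumor labelled *Myc*-knockin lay above every p53-driven tumor (log2 fold change 3.41, SE 0.59, adjusted p = 0.0217). That difference missed the threshold without F325, F331 or F368 (adjusted p = 0.0813, 0.0782 and 0.0909), as did nearly every call in the table. *Trp53* counts cannot check the labels, because the mice of both groups carried the same *Trp53* genotype (14.7 ± 14.0 against 10.04 ± 2.35 CPM, log2 fold change 0.58, adjusted p = 0.569). Whether the tumors kept the unfloxed allele was not measured.

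Of the 10 enzyme genes, all of which passed the filter on low counts, 5 were higher in *Myc*-knockin tumors (*Ppat*, *Pfas*, *Adsl*, *Atic* and *Impdh2*) and 0 were lower where a call needed a fold change above 1.5 with its adjusted p below 0.05 (edgeR quasi-likelihood test, Benjamini-Hochberg adjustment over 15365 genes). Across all genes tested, 2.26% passed as higher and 3% as lower. The members' median log2 fold change was 1.26, against 0.14 for all genes tested, so the whole table was shifted slightly upward on this scale. For 6 members, the 5 called genes and *Paics*, every *Myc*-knockin tumor was above every p53-driven tumor, an order seen in 5.41% of genes tested. The opposite order, seen in 7.54% of genes tested, was found for 0 members. For *Pfas* and *Impdh2* the lack of overlap depends on M9, where 31.8% and 38.2% of counts could come from the read density over receptor genes. The direction was higher in 9 of 10 members, the exception being *Impdh1*.

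The number of calls depended on which tumors entered the fit. With any 1 of the p53-driven tumors F187, F325, F331 or F368 left out, 0 members passed, and the count over all genes fell from 809 to 335, 8, 6 and 5 in that order. Leaving out a *Myc*-knockin tumor gave 3 members without M351, 4 without M408, 7 without M9, 4 without M624 and 4 without M664. The share of all genes called higher in these fits was 1.17%, 2.7%, 6.03%, 1.13% and 1.9% in that order. Without both M624 and M664, 3 members were higher (*Ppat*, *Pfas* and *Adsl*) and 1 was lower (*Impdh1*), where 1.8% of all genes tested were called higher. Without the 4 libraries rich in satellite reads, 7 members were higher, *Gart* and *Paics* joining the 5, and so were 15.7% of all genes tested. That fit sets F325, F331 and F368 against M624 and M664 alone, which nearly lack *Rn7sk*. Genotype and kind of library cannot be told apart in it. Scaling by library size alone gave 0 member calls (0.325% of all genes called higher), whereas DESeq2 gave 7 (9.98%). In all of these fits the 7 members *Ppat*, *Gart*, *Pfas*, *Paics*, *Adsl*, *Atic* and *Impdh2* kept a positive fold change.

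PRPP, the starting sugar phosphate, is made by PRPP synthetases, and the isozyme gene among the members is *Prps2* (chrX:167346322-167382749, minus strand). It was at 18.2, 20.8, 24.0 and 22.4 CPM in F187, F325, F331 and F368, and at 32.6, 34.2, 24.7, 40.3 and 19.9 CPM in M351, M408, M9, M624 and M664. The groups overlapped because M664 fell within the p53-driven range, and the difference did not pass the test (30.4 ± 8.07 against 21.3 ± 2.50 CPM, log2 fold change 0.51, SE 0.28, adjusted p = 0.262). Its sister gene *Prps1*, no member but an isozyme for the same reaction, was higher in *Myc*-knockin tumors (62.5 ± 20.3 against 23.6 ± 7.20 CPM, 2.65-fold, adjusted p = 0.0386) without overlap between the groups. *Prps1* was not called without M624 and M664 (log2 fold change 1.13, adjusted p = 0.0648), nor without F187 (0.0910), F325 (0.0820), F331 (0.128), F368 (0.163), M351 (0.0574) or M624 (0.0558), the values being adjusted p.

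*Ppat* encodes the amidotransferase that commits PRPP to purine synthesis (chr5:76913249-76951578, minus strand). Its level was 27.3, 17.2, 26.6 and 20.1 CPM in the p53-driven tumors and 73.9, 79.1, 35.1, 103 and 50.9 CPM in M351, M408, M9, M624 and M664. Every *Myc*-knockin tumor was above the p53-driven range, M9 by the smallest step and M624 by the largest. The mean was 68.4 ± 26.4 against 22.8 ± 4.95 CPM, a log2 fold change of 1.60 (SE 0.34, adjusted p = 0.0312). Omitting 1 tumor at a time gave log2 fold changes of 1.46 to 1.76, and the call was lost without M351 (adjusted p = 0.0528) and without each p53-driven tumor (highest adjusted p = 0.134, without F368).

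*Gart* (chr16:91621186-91646952, minus strand) encodes a protein with several activities in the early ring-building steps, among them a formyl transfer that uses a folate. It was at 36.7, 34.8, 33.6 and 42.9 CPM in the p53-driven tumors and at 75.1, 73.8, 38.2, 152 and 106 CPM in M351, M408, M9, M624 and M664. M9 lay inside the p53-driven range and the other 4 *Myc*-knockin tumors above it. The difference missed the threshold (88.9 ± 42.4 against 37.0 ± 4.14 CPM, log2 fold change 1.27, SE 0.36, adjusted p = 0.0620) and passed without M9 (1.46, adjusted p = 0.0215). *Gart* shares 1014 exon bases with the antisense gene *Gm15964* on the opposite strand, whose level was under 1.4 CPM in every *Myc*-knockin tumor, and the strand setting of the counting is not given in the sources used here.

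*Pfas*, whose product converts formylglycinamide ribonucleotide to its amidine with glutamine (chr11:68985697-69008460, minus strand), had the largest fold change of the 6 genes between PRPP and IMP. It was at 20.5, 15.3, 19.4 and 15.6 CPM in the p53-driven tumors and at 59.1, 78.4, 24.7, 134 and 67.1 CPM in M351, M408, M9, M624 and M664. All *Myc*-knockin tumors were above all p53-driven tumors, although M9 exceeded F187 only narrowly and 31.8% of its 31 *Pfas* counts could come from the read density seen over receptor genes. With that share taken off at unchanged scaling, M9 would lie inside the p53-driven range. A fit with this density subtracted still called *Pfas* (2.10, adjusted p = 0.0205). The means were 72.7 ± 39.9 and 17.7 ± 2.65 CPM (log2 fold change 2.05, SE 0.42, adjusted p = 0.0279). The call held without M624 and M664 (1.70, adjusted p = 0.0436) and was lost without each p53-driven tumor in turn, at adjusted p of 0.0584 without F187, 0.0997 without F325, 0.104 without F331 and 0.124 without F368.

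*Paics* encodes an enzyme with carboxylase and ligase activities (chr5:76951307-76967509, plus strand) and lies head to head with *Ppat*, the exons of the pair overlapping by 272 bases on opposite strands. It was at 74.7, 78.7, 88.0 and 59.2 CPM in the p53-driven tumors and at 122, 179, 105, 226 and 123 CPM in M351, M408, M9, M624 and M664. The groups did not overlap, but the difference missed the threshold (151 ± 50.3 against 75.1 ± 11.99 CPM, log2 fold change 1.01, SE 0.30, adjusted p = 0.0677). Only the omission of M9, among the omissions of 1 tumor, brought it past the threshold (1.12, adjusted p = 0.0399).

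*Adsl* encodes adenylosuccinate lyase, which acts both on the way to IMP and in the last step to AMP (chr15:80948490-80970946, plus strand). Its level was 18.6, 17.0, 22.2 and 17.99 CPM in the p53-driven tumors and 43.1, 44.9, 31.9, 103 and 76.4 CPM in M351, M408, M9, M624 and M664. The groups were separate, with M624 and M664 the highest tumors. The means were 59.9 ± 29.4 and 18.9 ± 2.29 CPM (log2 fold change 1.67, SE 0.36, adjusted p = 0.0320). The call held without M624 and M664 (1.14, adjusted p = 0.0394) and was lost without each p53-driven tumor, with adjusted p of 0.0754 without F187, 0.111 without F325, 0.107 without F331 and 0.138 without F368.

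*Atic* encodes the enzyme that closes the ring to give IMP, after a formyl transfer that also uses a folate (chr1:71557150-71579631, plus strand). It was at 59.2, 52.0, 58.1 and 46.3 CPM in the p53-driven tumors and at 103, 109, 79.7, 215 and 127 CPM in M351, M408, M9, M624 and M664. The groups did not overlap (127 ± 52.4 against 53.9 ± 5.98 CPM), and *Atic* passed as higher with a log2 fold change of 1.24 (SE 0.32, adjusted p = 0.0470). That call was close to the threshold. It was lost in 8 of the 9 omissions of 1 tumor, at adjusted p from 0.0518 without M408 to 0.193 without F368 (0.0944 without F187, 0.142 without F325, 0.141 without F331, 0.0600 without M351, 0.0602 without M624 and 0.0537 without M664).

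**Figure D1:**
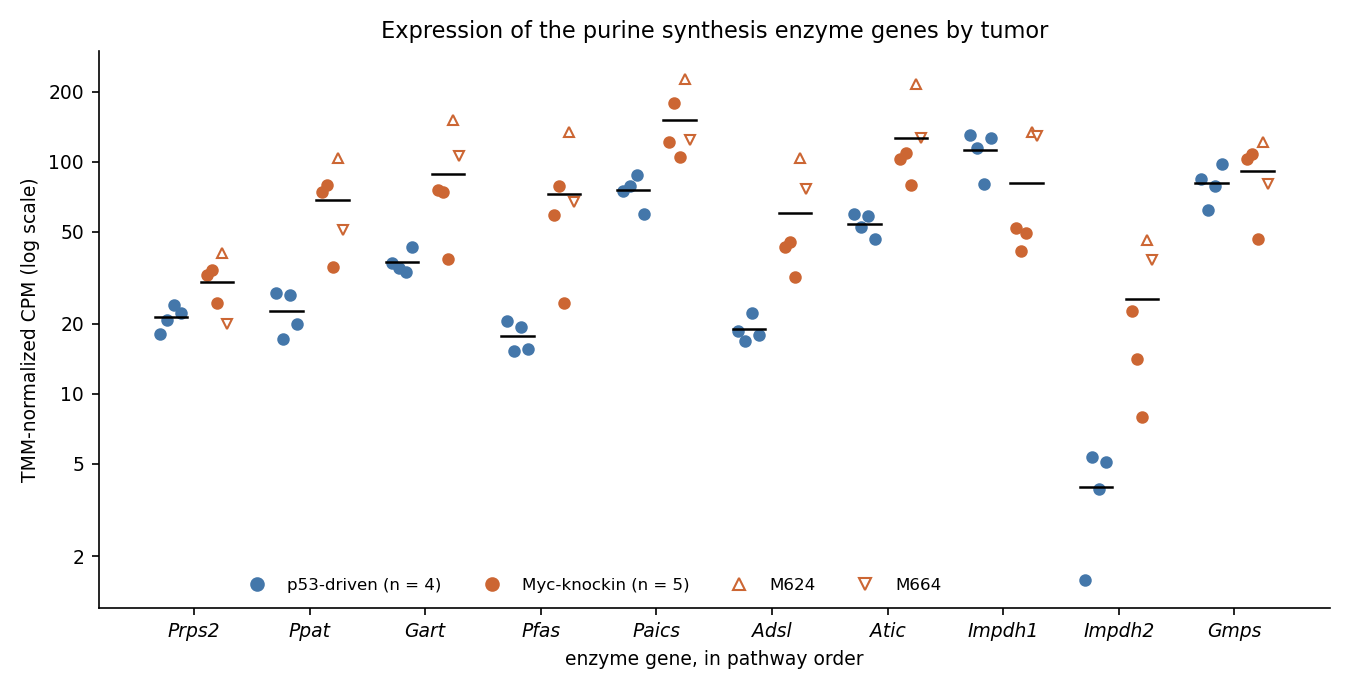
TMM-normalized CPM (log axis) of each enzyme gene in each tumor, with a point per tumor, triangles for M624 and M664, and a line at each group mean. *Ppat*, *Pfas*, *Paics*, *Adsl*, *Atic* and *Impdh2* have no overlap between the groups, M9 is the lowest *Myc*-knockin tumor for each of these, and *Impdh1* is split, with 3 *Myc*-knockin tumors at 41.0 to 51.7 CPM and M624 and M664 at 134 and 129 CPM.

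The guanine branch starts with IMP dehydrogenase, the rate-limiting step to GMP, which exists as the isozymes IMPDH1 and IMPDH2. *Impdh1* (chr6:29200434-29216364, minus strand) was at 130, 115, 79.7 and 126.3 CPM in the p53-driven tumors and at 51.7, 41.0, 49.4, 134 and 129 CPM in M351, M408, M9, M624 and M664. The *Myc*-knockin tumors were divided, M351, M408 and M9 below every p53-driven tumor M624 above them all and M664 just under the highest, F187. With all tumors the difference did not pass the test (80.9 ± 46.0 against 113 ± 22.9 CPM, log2 fold change -0.47, SE 0.40, adjusted p = 0.482). Without M624 and M664 *Impdh1* was lower in *Myc*-knockin tumors (-1.20, adjusted p = 0.0422), and limma-voom with quality weights on all 9 tumors also called it lower (-1.10, adjusted p = 0.0277). Without the 4 libraries rich in satellite reads, where M624 and M664 are the only *Myc*-knockin tumors left, the sign was the opposite (0.32, adjusted p = 0.427).

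*Impdh2* (chr9:108560286-108565584, plus strand) had the largest fold change of the 10 members in the fit of all tumors. It was at 1.58, 5.37, 3.89 and 5.11 CPM in the p53-driven tumors, from 4, 69, 45 and 42 counts. In M351, M408, M9, M624 and M664 it was at 22.8, 14.1, 7.97, 46.2 and 37.6 CPM, from 37, 77, 10, 1212 and 871 counts. Every *Myc*-knockin tumor was above every p53-driven tumor (25.7 ± 16.0 against 3.99 ± 1.73 CPM, log2 fold change 2.67, SE 0.55, adjusted p = 0.0287). The low counts were close to background in the shallow libraries, where the read density over receptor genes would give 2.18 of the 4 counts in F187 and 3.82 of the 10 in M9. With those 3.82 counts taken off at unchanged scaling, M9 would lie inside the p53-driven range. A fit with this density subtracted still called *Impdh2* (2.75, adjusted p = 0.0275). Leaving out M624 and M664 brought the log2 fold change to 1.92 (adjusted p = 0.0534), and without each p53-driven tumor the adjusted p was 0.0601 (F187), 0.0866 (F325), 0.107 (F331) and 0.115 (F368).

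*Impdh2* has a near-identical copy, with which it can share reads. *Impdh2-ps*, a processed pseudogene at chr8:100030558-100032102, differs from the 1545 coding bases of *Impdh2* at 4 positions (99.74% identity), and the longest run without a difference is 611 bases. Of all 76-base stretches of the principal *Impdh2* transcript, the length of a read, 69.2% also occur in *Impdh2-ps*. The share over the other *Impdh2* transcripts was not computed. Reads were paired, and the share of read pairs that could belong to either gene was not measured. The stretch of coding bases 232 to 307 shows how little separates them, and the capital marks the position at which they differ (GENCODE vM21 transcripts).
Impdh2: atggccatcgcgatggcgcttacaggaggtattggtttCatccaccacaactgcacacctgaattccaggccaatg
Impdh2-ps: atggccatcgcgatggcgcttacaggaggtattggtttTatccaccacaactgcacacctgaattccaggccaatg
*Impdh2-ps* held 81, 729, 429 and 332 counts in F187, F325, F331 and F368, and 176, 651, 43, 4655 and 3071 in M351, M408, M9, M624 and M664. That was 77.9% to 95.3% of the counts of the pair in each tumor. *Impdh2-ps* alone did not pass the test (114 ± 51.9 against 41.5 ± 10.7 CPM, log2 fold change 1.46, adjusted p = 0.0601).

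With the counts of the pair added together, the level was 33.6, 62.1, 41.0 and 45.5 CPM in the p53-driven tumors and 131, 133, 42.2, 224 and 170 CPM in M351, M408, M9, M624 and M664. The groups then overlapped at M9, and the mean was 140 ± 66.3 against 45.5 ± 12.1 CPM. The log2 fold change of the sum was 1.62 with an adjusted p = 0.0501, so *Impdh2* was not called in this form. It was not called without M624 and M664 either (1.24, adjusted p = 0.103). Without the 4 libraries rich in satellite reads it was called (2.01, adjusted p = 0.00890), but there M624 and M664 are the only *Myc*-knockin tumors. Genotype and kind of library cannot be told apart in that fit. The size of the *Impdh2* change is uncertain, because how the counting divided shared reads is not given in the sources used here.

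GMP synthetase, which completes the guanine branch, is encoded by *Gmps* (chr3:63976106-64022579, plus strand). Its level was 84.1, 62.1, 78.4 and 97.7 CPM in the p53-driven tumors and 102, 108, 46.2, 121 and 79.8 CPM in M351, M408, M9, M624 and M664. The groups overlapped and the means were close (91.5 ± 29.4 against 80.6 ± 14.7 CPM, log2 fold change 0.19, SE 0.30, adjusted p = 0.729). Under the 9 omissions of 1 tumor the log2 fold change ran from 0.09 to 0.36 without a call.

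**Figure D2:**
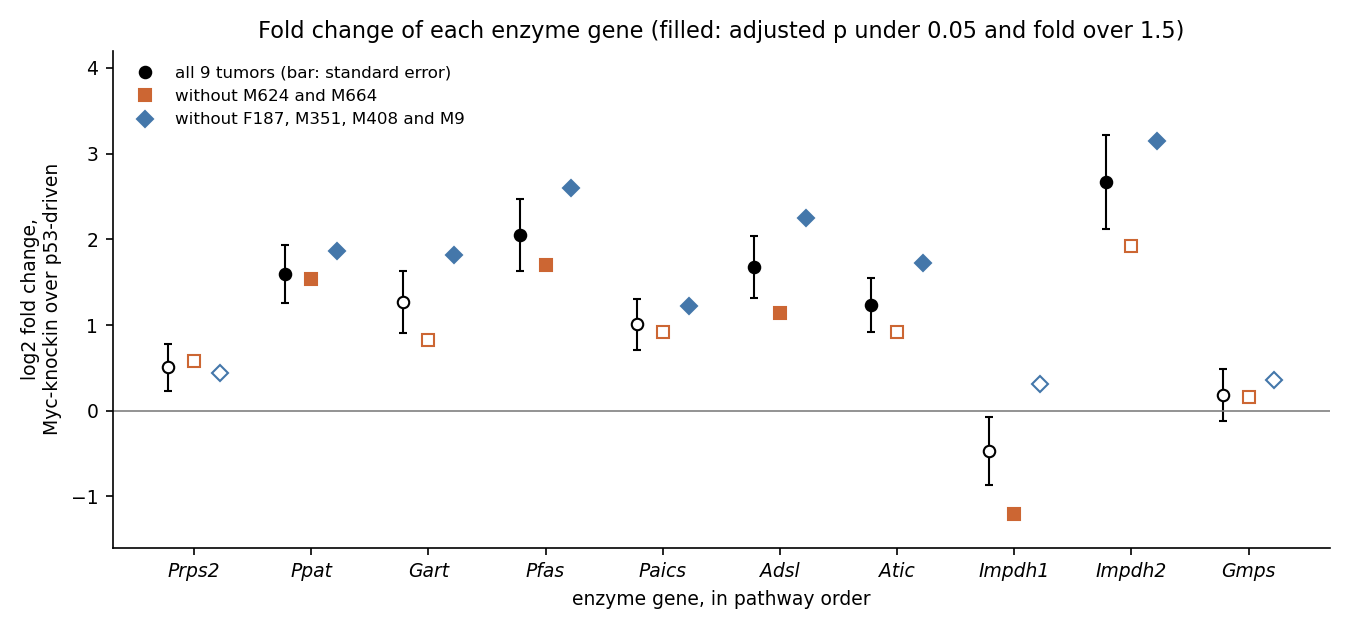
Log2 fold change of each enzyme gene, *Myc*-knockin over p53-driven, with all 9 tumors (circles, bar for the standard error), without M624 and M664 (squares) and without the 4 libraries rich in satellite reads (diamonds), filled where the adjusted p was under 0.05 and the fold over 1.5. *Ppat*, *Pfas* and *Adsl* are filled in all 3 fits, and *Impdh1* changes sign, from -1.20 to 0.32. For the diamonds, M624 and M664 are the only *Myc*-knockin tumors, so genotype and kind of library cannot be told apart.

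Read ratios within a tumor do not depend on library scaling, and 3 such ratios were compared by exact permutation over every way to split the 9 tumors (two-sided, adjusted over the 3 ratios). The log2 ratio of *Impdh2* to *Impdh1* counts was -6.19, -4.41, -4.34 and -4.61 in F187, F325, F331 and F368, and -1.17, -1.53, -2.57, -1.53 and -1.77 in M351, M408, M9, M624 and M664. The groups were well apart, at -1.72 ± 0.52 (SD, n = 5) against -4.89 ± 0.88 (SD, n = 4), a difference of 3.17 or 9.02-fold (exact p = 0.0159, the smallest these group sizes allow, adjusted p = 0.0476). M624 and M664, which differed from the other *Myc*-knockin tumors in *Impdh1* level, did not stand apart in this ratio. With *Impdh2-ps* counts added to *Impdh2* the difference was 2.11, or 4.31-fold (0.79 ± 0.76 against -1.32 ± 0.49, exact p = 0.0159), again without overlap. Leaving out 1 tumor at a time gave differences of 2.74 to 3.39 without overlap in any of the 9 omissions. The exact p was then the smallest possible each time (0.0357 without a p53-driven and 0.0286 without a *Myc*-knockin tumor), so that its adjusted values, which also depend on the other ratios, carry no information on stability.

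The log2 ratio of *Prps2* to *Prps1* was 0.20, -0.68, 0.06 and 0.02 in the p53-driven tumors and -0.84, -0.67, -0.53, -1.15 and -1.90 in M351, M408, M9, M624 and M664. The *Myc*-knockin tumors were lower by 0.92 on average, with F325 inside their range (-1.02 ± 0.55 against -0.10 ± 0.39, exact p = 0.0476, adjusted p = 0.0476). *Prps1* shares 4.97% of the 76-base stretches of its principal transcript with *Prps1l3*, and adding the *Prps1l3* counts gave a difference of -0.74 (exact p = 0.0317). Omitting 1 tumor at a time gave differences of -1.11 to -0.69, with exact p from 0.0357 (without F325) to 0.107 (without F187, F331 or F368).

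For the divergent neighbors, the log2 ratio of *Paics* to *Ppat* was 1.45, 2.19, 1.72 and 1.56 in the p53-driven tumors and 0.72, 1.18, 1.57, 1.13 and 1.28 in M351, M408, M9, M624 and M664. The ratio was lower by 0.55 in *Myc*-knockin tumors, with M9 inside the p53-driven range (1.18 ± 0.31 against 1.73 ± 0.33, exact p = 0.0476, adjusted p = 0.0476). Omitting 1 tumor at a time gave differences from -0.65 (without M9, exact p = 0.0286) to -0.40 (without F325, exact p = 0.107).

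**Figure D3:**
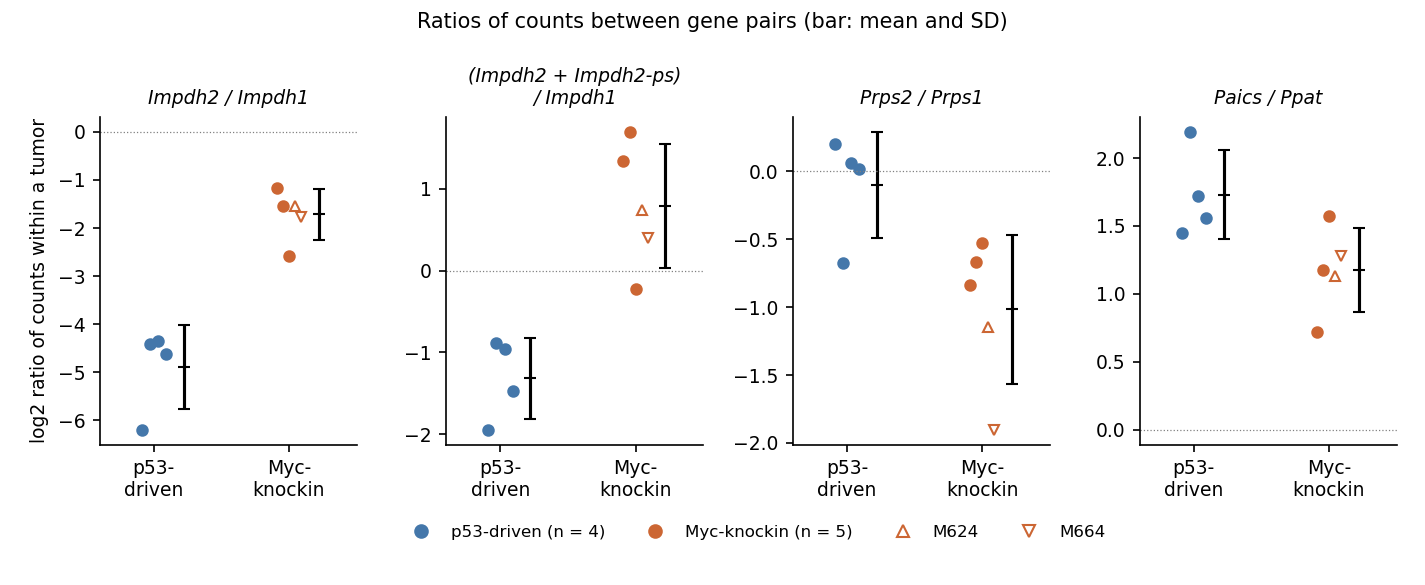
Log2 ratio of counts within each tumor for 3 gene pairs, and for *Impdh2* with *Impdh2-ps* over *Impdh1*, with a point per tumor and a bar for the mean and SD of each group (axes differ between panels). The *Impdh2* to *Impdh1* ratio separates the groups with and without *Impdh2-ps*, while the *Prps2* to *Prps1* and *Paics* to *Ppat* ratios overlap by 1 tumor each.

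The size of the shift differed among the *Myc*-knockin tumors. The median over the 10 members of the fold over the p53-driven mean was 1.40 in M9, 1.97 in M351, 2.20 in M408, 2.29 in M664 and 4.05 in M624. *Myc* CPM put the 5 tumors in the same order (144, 270, 520, 905 and 1045), and so did the counts left outside satellite repeats (671790, 872935, 3300482, 15769777 and 17073254), so that the level of *Myc* and the depth of the library cannot be told apart here. The number of members above the highest p53-driven tumor was 7 in M9, 9 in M351, 9 in M408, 10 in M624 and 7 in M664. The share of all genes tested above that level in each tumor was not computed, so these counts have no baseline. In bulk tumors, fewer cells that express a gene and less RNA per cell cannot be told apart.

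Per kilobase of the principal transcript, the order of mean levels in p53-driven tumors was *Impdh1* (43.4 CPM per kb), *Paics* (30.3), *Atic* (19.0), *Gart* (10.5), *Gmps* (9.94), *Prps2* (5.77), *Ppat* (5.72), *Adsl* (5.10), *Pfas* (2.78) and *Impdh2* (2.15). Neighbors in this order differed by more than the sum of their SDs at 4 of 9 steps, *Paics* over *Atic*, *Atic* over *Gart*, *Gmps* over *Prps2* and *Adsl* over *Pfas*. In *Myc*-knockin tumors the order was *Paics* (60.9 CPM per kb), *Atic* (44.6), *Impdh1* (31.1), *Gart* (25.3), *Ppat* (17.2), *Adsl* (16.1), *Impdh2* (13.8), *Pfas* (11.4), *Gmps* (11.3) and *Prps2* (8.21), and 0 of 9 steps exceeded the sum of the SDs. The place of *Impdh2* is uncertain in both orders. Its level leaves out *Impdh2-ps*, which held 77.9% (M664) to 95.3% (F187) of the counts of the pair, and how shared reads were divided is not given.

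Across the 9 tumors, which include the group difference and share library depth, Pearson's r between log2 CPM of *Ppat*, *Gart*, *Pfas*, *Paics*, *Adsl*, *Atic* and *Impdh2* ran from 0.80 to 0.98. *Impdh1* stood apart, with r from -0.44 with *Prps2* to 0.14 with *Gmps*. The genes most like the mean of the members' log2 CPM, among 9529 genes with a mean of at least 10 CPM, were *Akap1* (r = 0.997), *Polr1b* (0.992), *Cks1b* (0.9902), *Hspd1* (0.989) and *Thumpd1* (0.988), given as a description over 9 tumors.

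Other genes around IMP were read from the same fit. Of 6 tested genes for other PRPP and AMP branch proteins, 1 was higher (*Prps1*) and 0 were lower. *Adss*, which encodes the synthetase that starts the AMP branch, was at 96.3 ± 38.3 against 61.6 ± 7.18 CPM (log2 fold change 0.65, adjusted p = 0.199). Of 8 salvage genes and 15 breakdown genes, 0 were called in either direction. *Hprt*, which recycles hypoxanthine and guanine, was at 62.3 ± 21.4 against 42.7 ± 5.42 CPM (log2 fold change 0.55, adjusted p = 0.255). Of 11 purine nucleotide kinases, 1 was higher, *Nme4*, a nucleoside diphosphate kinase of mitochondria (5.69-fold, adjusted p = 0.0405). The *Nme4* call was lost without any 1 tumor but M408 and M9, at adjusted p from 0.0557 without M351 to 0.164 without F368 (F187 0.0561, F325 0.128, F331 0.137, M624 0.0631, M664 0.0578). The same call was lost without both M624 and M664 (log2 fold change 1.55, adjusted p = 0.0994).

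Folate-bound carbon units are the donors for the formyl transfers of *Gart* and *Atic*. Of 14 one-carbon genes, 3 were higher and 2 were lower. The higher ones were *Mthfd1*, the cytosolic enzyme that makes 10-formyltetrahydrofolate (4.19-fold, adjusted p = 0.0345), *Shmt1*, the cytosolic serine hydroxymethyltransferase (13.4-fold, adjusted p = 0.0175), and *Slc19a1*, the reduced folate carrier (5.17-fold, adjusted p = 0.0405). The lower ones were *Aldh1l2*, which oxidizes 10-formyltetrahydrofolate in mitochondria (log2 fold change -2.82, adjusted p = 0.0320), and *Slc25a32*, the mitochondrial folate carrier (-1.25, adjusted p = 0.0312). Of 11 pyrimidine synthesis genes, 1 was higher, *Dut*, which encodes dUTPase (3.95-fold, adjusted p = 0.0301). Without F325, F331 or F368, 0 of these 6 genes were called, with adjusted p from 0.0640 (*Shmt1* without F331) to 0.151 (*Mthfd1* without F368). Without F187, *Mthfd1* (adjusted p = 0.0759), *Slc19a1* (0.0868) and *Dut* (0.0628) lost their calls, and without M351 *Slc19a1* (0.0528) and *Slc25a32* (0.0511) did, as did *Slc19a1* without M624 (0.0510). Leaving out M664 kept the *Slc19a1* call but brought its log2 fold change from 2.37 to 1.65. Without both M624 and M664, *Aldh1l2* (adjusted p = 0.0509) and *Slc25a32* (0.0534) lost their calls. *Mthfd1*, *Shmt1*, *Slc19a1* and *Dut* kept theirs in that fit.

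**Figure D4:**
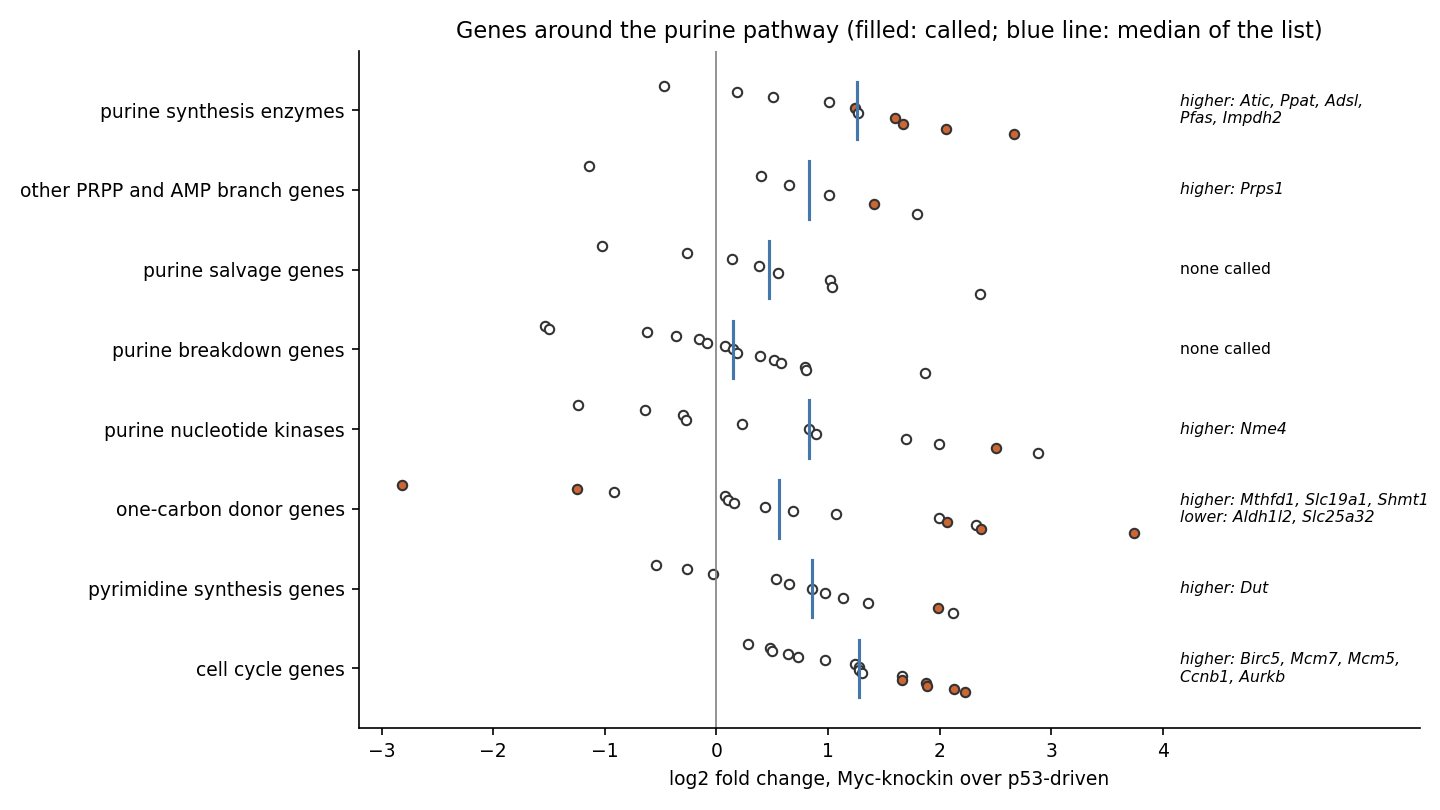
Log2 fold change, *Myc*-knockin over p53-driven, of every tested gene in 8 lists, with a point per gene, filled where called, and a line at the median of the list. The enzyme genes have a median of 1.26 and the cell cycle genes 1.28, and salvage and breakdown genes have no call.

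Lists of cell cycle genes and cell type markers were read from the same fit. Of 16 cell cycle genes, 5 were called higher (*Aurkb*, *Ccnb1*, *Mcm5*, *Mcm7* and *Birc5*) and 0 lower, all 16 had a positive fold change with a median log2 value of 1.28, and their summed level was 590 to 964 CPM in p53-driven and 926 to 2265 CPM in *Myc*-knockin tumors. The summed level of 13 osteoblast markers was 66205 to 141847 CPM in p53-driven tumors and 3622 to 41588 CPM in *Myc*-knockin tumors, a sum carried by the collagen genes *Col1a1* (8492 ± 7158 against 67771 ± 21234 CPM, adjusted p = 0.0682) and *Col1a2* (6226 ± 5826 against 45533 ± 19309 CPM, adjusted p = 0.0817). Of the 13, 12 had a negative fold change, 2 were called lower, 11 were not called, and 6 lay wholly below the p53-driven tumors. Of 14 leukocyte and macrophage markers, 3 were called lower and 11 were not called (summed 1129 to 2022 against 425 to 1433 CPM), and of 8 osteoclast markers, 6 were called lower (2716 to 14151 against 124 to 2570 CPM). Of 6 endothelial and 8 skeletal muscle markers, 0 were called (328 to 462 against 81.9 to 418 CPM, and 13.4 to 5533 against 9.83 to 2270 CPM). Of 7 red cell markers only 2 could be tested and 0 were called (6.61 to 21.2 against 17.5 to 784 CPM), and *Hba-a1*, *Hba-a2* and *Hbb-bs* were at 0 in every p53-driven tumor. The part of cell division and of cell makeup in the enzyme genes' differences was not tested.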

How the data were processed

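Whole-tumor RNA-Seq counts of 9 mouse osteosarcomas were used. The authors describe libraries made with a stranded total RNA kit and oligo-dT enrichment. They name no difference in preparation between tumors, and why satellite reads and *Rn7sk* levels divided the libraries was not tested. The authors trimmed reads with Trim Galore, aligned them to mm10 with STAR and deposited raw featureCounts counts per gene, unnormalized. The strand setting of the counting is not given in the sources used here. Tumors are named by their columns, which could not be tied to single numbered samples, only to a group, M351, M9 and M664 by the letter M alone. Unused sample columns numbered 0.

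Genes were filtered with filterByExpr (minimum count 10), scaled by TMM and tested between the groups with edgeR 4.0.16 in R 4.3.3 (quasi-likelihood test, two-sided, Benjamini-Hochberg over all genes tested, no covariate). Calls needed a fold change above 1.5 with an adjusted p below 0.05. The standard error was the log2 fold change divided by the square root of F. The script was tested on simulated data. Ratios used 0.5 added counts and exact permutation in scipy 1.17.1. DESeq2 1.42.0, limma 3.58.1, other scalings and filters, and fits without single or grouped tumors were the alternatives. Fits with *Impdh2-ps* counts added to *Impdh2*, or *Prps1l3* counts to *Prps1*, were chosen after seeing the data. Nothing says that tumors came from separate animals, so p-values measure the spread between these samples. Depth limits cover counting error only.

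The members and lists were chosen with earlier results of these data known. Named genes are the members, *Myc*, *Trp53*, *Prps1*, *Adss* and *Hprt*, up to 4 called genes per direction of each pathway list by adjusted p, markers at 0 in a group, and the 5 genes most correlated with the members' mean. *Birc5*, *Impdh2-ps*, *Prps1l3*, *Gm15964*, *Col1a1*, *Col1a2* and *Rn7sk* were named in addition after their values were seen. Gene positions are from GENCODE vM21 and promoters from RefSeq, in which 9 of 10 members matched.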

Additional observations from a re-analysis of the deposited data

Results flagged for a closer look

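In 4 of the 52 groups of values examined, 1 tumor lay far from the rest of its group by Dixon's criterion, where chance gives about 1 in 20. For *Shmt1*, M624 was at 149 CPM among the *Myc*-knockin tumors, and the next was at 55.6 CPM. For *Slc19a1*, M664 was at 122 CPM among the *Myc*-knockin tumors, and the next was at 37.0 CPM. For *Dut*, M624 was at 151 CPM among the *Myc*-knockin tumors, and the next was at 58.1 CPM. For the log2 ratio of *Impdh2* to *Impdh1*, F187 was at -6.19 among the p53-driven tumors, from 4 *Impdh2* counts, and the next was at -4.61.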

How the results depend on the processing

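The count of 5 enzyme genes called higher became 0 with scaling by library size alone, 2 when all genes with at least 1 count were tested, and 3 without M624 and M664, also 3 with *Impdh2-ps* counts added to *Impdh2* and those tumors left out. The share of all genes tested called higher was 0.325% with library size alone and 0.457% with all genes of at least 1 count. It was 1.8% without M624 and M664, with or without *Impdh2-ps* added. Over the omissions of 1 tumor the count of enzyme genes ran from 0 to 7, where 0% to 6.03% of all genes tested were called higher. The genes called in the whole table also varied, from 5 (without F368) to 4595 (without the 4 libraries rich in satellite reads), with 809 in the fit of all tumors, 136 with library size alone, 494 with all genes of at least 1 count, 1316 with at least 10 counts in every tumor, 2646 with DESeq2, 1663 with limma-voom and 2248 at an adjusted p under 0.1. Upper-quartile scaling called 626 genes higher and 345 lower, against 348 and 461 with TMM. Log2 fold changes of the opposite sign were 0.32 for *Impdh1* without the 4 libraries rich in satellite reads (with or without *Impdh2-ps* added) and -0.072 for *Trp53* without M408 (up to 0.81 without M9). The log2 ratio differences ran from 2.74 to 3.39 for *Impdh2* to *Impdh1*, from -1.11 to -0.69 for *Prps2* to *Prps1* and from -0.65 to -0.40 for *Paics* to *Ppat* over the omissions of 1 tumor. Without M624 and M664 they were 3.13, -0.58 and -0.57, where the smallest possible exact p is 0.0571. The cause of these changes was not tested, beyond the fewer samples in the omissions. The 633 recomputed values covered single genes, the count of called enzyme genes and the log2 ratio differences. For single genes, 441 values kept their direction and side of the threshold, 97 lost the call, 29 gained it and 3 changed sign. Of the rest, 26 were classed as unchanged, and 28 ratio differences no longer passed the adjusted p threshold, all with tumors left out. The other 9 were counts of called enzyme genes, which fell to 0, 2 or 3. In the other fits the count of called enzyme genes was 4 to 7, where 1.13% to 15.7% of all genes tested were called higher. No paired analysis was possible because the columns carry no replicate numbers. The *Impdh2* values rest on 4 to 77 counts in 7 tumors and are the least precise of the members.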
